A study of Homo sapiens with 11 samples.

Results

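The enzymes that write, copy and remove repressive marks on chromatin were followed as 10 genes, EZH1, EZH2, SUZ12, EED, DNMT1, DNMT3A, DNMT3B, UHRF1, TET1 and TET2. They were chosen by name, with earlier results of these data known, from the 61566 genes to which the reads were summed. All 10 were among the 17039 genes that passed the filter on low counts. All groups were made from one human melanoma line, SK-MEL-103, whose poly(A) RNA was sequenced. Cells were kept for 6 days in the solvent DMSO (n = 4), in 0.25 µM etoposide, a topoisomerase II poison (n = 4), or in 0.5 µM tozasertib, an Aurora kinase inhibitor (n = 3). The study used both drugs to induce senescence, a lasting arrest of cell division, and medium with solvent or drug was replaced on day 3. Tozasertib replicate 3 was not analysed here. Whether replicates came from separate cultures is not stated, and the p-values therefore cover the spread among these libraries only, part of which may be technical.

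Polycomb repressive complex 2 (PRC2) places methyl groups on lysine 27 of histone H3. Its catalytic subunit is either EZH2, which is abundant in dividing cells, or EZH1, which is also found in resting tissue, and SUZ12 and EED hold the complex together and stimulate it. DNA methylation is copied at the replication fork by DNMT1, which UHRF1 guides to newly made DNA, while DNMT3A and DNMT3B can methylate sites that carried no mark, and the TET enzymes oxidize methylcytosine as a step towards its removal.

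Totals ran from 27882689 to 56534763 reads per sample, and the drug-treated samples stood apart from the DMSO samples along the first principal component, which held 60.4% of the variance. The lineage gene SOX10 was high in all groups (323 to 514 CPM on average, CPM being the share of a sample's reads in edgeR's usual unit after TMM scaling), and was called lower with both drugs, by 0.67 and 0.44 on the log2 scale. The pigment genes MLANA, TYR, TYRP1 and DCT were at or near 0. With etoposide MITF rose by 0.30 and S100B by 0.90. AXL and NGFR, genes of dedifferentiated melanoma, were high and rose by 0.22 and 1.37 with etoposide. SOX9 and EGFR of the same list fell by 0.95 and 0.53 with this drug. With tozasertib 3 of 4 tested lineage genes were higher and 1 lower, and 2 of the 4 dedifferentiation genes were higher and 2 lower. Across all genes tested, 29.4% were lower and 29.9% higher with tozasertib, so counts from such short lists say little. Of keratinocyte genes KRT17 rose by 1.92 and KRT14 fell by 0.84 with etoposide, KRT10 did not pass, and KRT1 and KRT5 were near 0. PMEL, another pigment gene, stood at 0.326 CPM in DMSO and 0.404 with etoposide, and rose to 3.84 CPM with tozasertib (log2 fold change 3.57, adjusted p = 9.56e-07, edgeR). Of the immune markers, PTPRC and CD3E were at or near 0, and CD14 was at most 0.462 CPM in a sample. CD68, a lysosomal protein of macrophages, was at 62.8 CPM in DMSO, 39.1 with etoposide and 44.7 with tozasertib, and it and CD14 were called lower with both drugs. Of 7 fibroblast markers, whose summed level was 49.6 to 58.4 CPM in DMSO samples, 155 to 171 under etoposide and 135 to 140 under tozasertib, LUM, COL1A1 and COL14A1 rose with both drugs and PDGFRA with tozasertib. TWIST2 fell with both (by 0.55 and 0.64), COL1A2 did not pass (-0.14 and -0.16), and DCN was near 0. The part of all these markers in the results below was not tested. DMSO replicates 1 and 4 stood apart from the other DMSO samples in a trend with gene length, with rank correlations across genes between deviation and length of -0.48 and 0.41. In bulk RNA, fewer cells that express a gene and less of its RNA per cell cannot be told apart.

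Relative to DMSO, etoposide lowered 6 of the 10 genes (EZH2, SUZ12, EED, DNMT1, UHRF1 and TET1) and raised 1 (DNMT3B), while 3 did not pass the test (edgeR, Benjamini-Hochberg adjusted p under 0.05). Across all genes tested 30.7% were called lower and 27.7% higher. Tozasertib lowered 5 (EZH2, SUZ12, EED, DNMT1 and UHRF1) and raised 1 (TET2), against 29.4% lower and 29.9% higher of all genes. Between the drugs, UHRF1 was lower and TET2 higher in tozasertib and 8 did not pass, against 5.45% lower and 5.67% higher of all genes. The median log2 fold change of the 10 genes was -0.51 with etoposide and -0.36 with tozasertib, beside -0.01 and 0.02 over all genes tested.

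**Figure D1:**
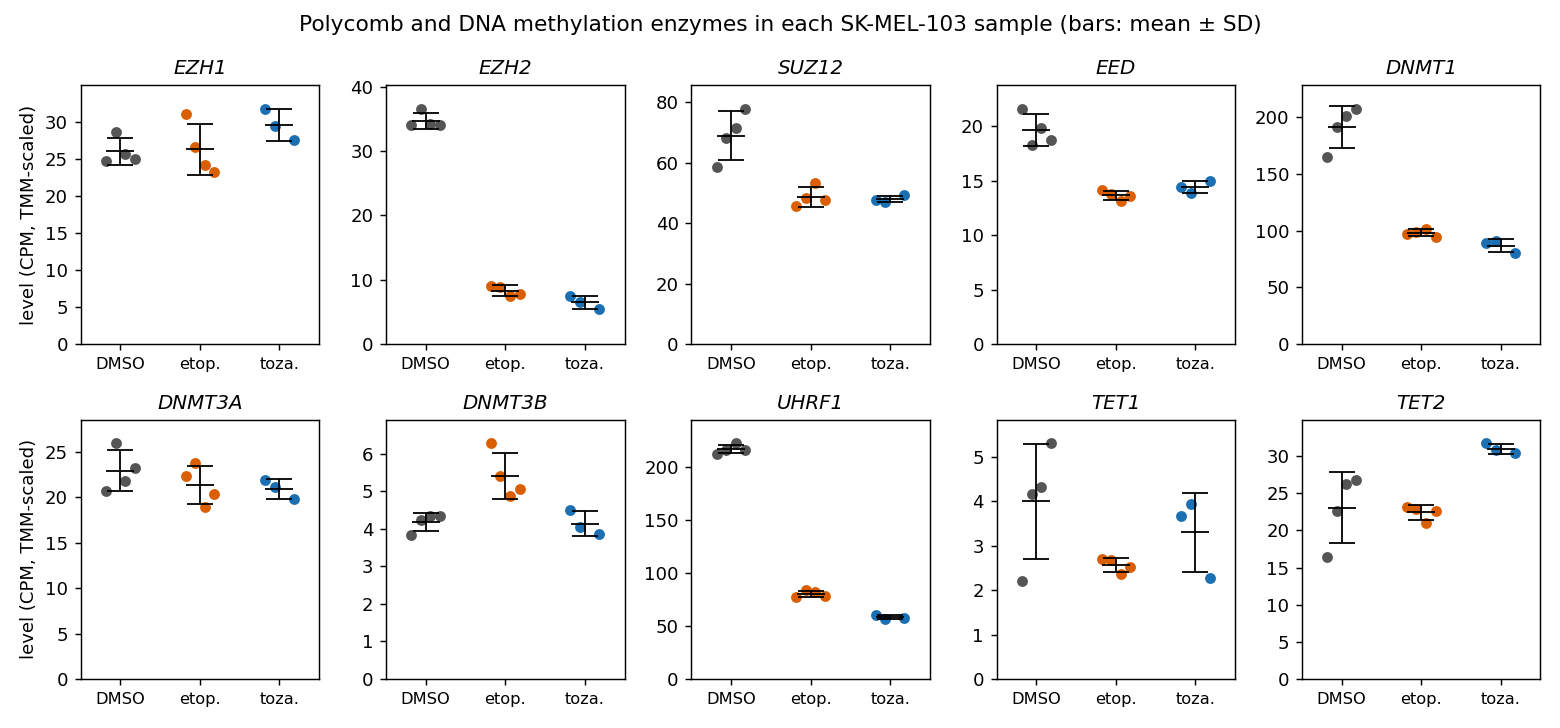
Level of each gene in each sample, in CPM after TMM scaling (vertical axis from 0), for DMSO (grey), etoposide (orange) and tozasertib (blue). Points are samples in order of replicate number, and bars give the mean ± SD. EZH2, SUZ12, EED, DNMT1 and UHRF1 lie lower in every drug-treated sample than in every DMSO sample. The share of all genes that do so was not counted.

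Promoters are shown for the genes of this set in which a match to an E2F site was found, because E2F factors are known to control genes of DNA replication. Whether E2F had a part in any change of level was not tested. RefSeq start sites on GRCh38.p14 were matched by symbol for all 10 genes, and each promoter covers 250 bases before to 50 after the start. Both strands were searched for TTTCCCGC, TTTCGCGC, TTTGCCGC and TTTGGCGC. A match was present in 3.31% of 35116 promoters, and in at least 1 promoter of 3.99% of 27305 genes. Capitals mark the match in the sequences below, which are printed 5′ to 3′ along the gene from 200 bases before to 10 bases after the start.
EZH1 (chr17:42745031-42745240, minus strand): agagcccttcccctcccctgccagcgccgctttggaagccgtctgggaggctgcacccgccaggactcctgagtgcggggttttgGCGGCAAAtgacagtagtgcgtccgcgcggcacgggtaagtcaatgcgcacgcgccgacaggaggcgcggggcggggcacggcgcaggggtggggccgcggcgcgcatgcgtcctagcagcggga
EZH2 (chr7:148884282-148884491, minus strand): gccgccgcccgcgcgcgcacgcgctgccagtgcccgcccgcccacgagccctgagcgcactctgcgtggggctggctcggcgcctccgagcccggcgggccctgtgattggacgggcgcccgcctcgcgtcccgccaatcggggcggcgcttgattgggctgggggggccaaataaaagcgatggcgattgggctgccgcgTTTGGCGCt
SUZ12 (chr17:31936807-31937016, plus strand): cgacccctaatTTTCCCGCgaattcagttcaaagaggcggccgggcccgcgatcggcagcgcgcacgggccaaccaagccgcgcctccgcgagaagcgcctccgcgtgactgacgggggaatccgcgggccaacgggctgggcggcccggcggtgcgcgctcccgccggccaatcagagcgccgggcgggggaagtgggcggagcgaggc
DNMT1 (chr19:10194944-10195153, minus strand): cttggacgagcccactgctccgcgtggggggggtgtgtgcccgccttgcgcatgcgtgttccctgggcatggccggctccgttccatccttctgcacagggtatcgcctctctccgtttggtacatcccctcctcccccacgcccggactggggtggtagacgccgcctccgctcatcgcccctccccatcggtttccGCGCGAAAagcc
UHRF1, upstream start (chr19:4909301-4909510, plus strand): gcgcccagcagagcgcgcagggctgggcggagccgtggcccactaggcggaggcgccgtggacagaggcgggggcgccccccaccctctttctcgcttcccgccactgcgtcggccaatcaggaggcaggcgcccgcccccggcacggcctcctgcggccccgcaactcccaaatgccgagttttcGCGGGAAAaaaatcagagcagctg
UHRF1, downstream start (chr19:4909944-4910153, plus strand): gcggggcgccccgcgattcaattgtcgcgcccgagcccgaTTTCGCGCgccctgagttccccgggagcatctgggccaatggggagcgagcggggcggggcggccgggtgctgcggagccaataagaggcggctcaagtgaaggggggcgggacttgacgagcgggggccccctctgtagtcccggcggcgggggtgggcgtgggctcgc
The match began 115 bases before the start in EZH1, at base 2 of the transcript in EZH2, and 189 bases before it in SUZ12. In DNMT1 it began 2 bases before the start, and in UHRF1 14 bases before the upstream start and 160 before the downstream one. A further UHRF1 start, downstream of both (chr19:4910367), and another EZH2 start (chr7:148883485) held no match. No match was present in the promoters of EED, DNMT3A, DNMT3B, TET1 and TET2, which says only that these letters are not in this window. EZH1 held a match and did not pass the test with either drug, and EED held none and fell with both. A second motif of mitotic genes, the cell cycle homology region, was searched as TTTGAA or TTCGAA on both strands and was found in SUZ12, in 1 start of DNMT3A and in 1 start of TET2, beside 16.4% of all promoters. CpG dinucleotides numbered 46 at the first EZH2 start and 3 at the DNMT3B start, with a median of 14 over all promoters.

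EZH2, the catalytic subunit of PRC2 (ENSG00000106462.12, chr7:148807257-148884321, minus strand), showed the deepest fall of the 10. Its level was 34.0, 36.6, 34.2 and 34.1 CPM in the 4 DMSO samples. It was 9.12, 8.94, 7.46 and 7.74 CPM with etoposide. With tozasertib it was 7.48, 6.57 and 5.47 CPM. Every drug-treated sample was thus below every DMSO sample, whereas 1 tozasertib sample lay within the range of the etoposide samples. EZH2 was 4.17-fold lower with etoposide (log2 fold change -2.06, SE 0.10, adjusted p = 1.68e-09) and 5.30-fold lower with tozasertib (log2 fold change -2.41, SE 0.11, adjusted p = 1.25e-09), in edgeR's quasi-likelihood test. Between the drugs the log2 difference was -0.35 (95% interval -0.58 to -0.11) and did not pass after adjustment (edgeR, adjusted p = 0.0638). That difference passed in 7 of 23 alternatives.

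EZH1, the other catalytic subunit (ENSG00000108799.13, chr17:42700275-42745049, minus strand), was 24.6, 28.7, 25.7 and 25 CPM in DMSO. It was 31.0, 26.6, 24.1 and 23.3 CPM with etoposide and 31.8, 29.4 and 27.5 CPM with tozasertib. The 3 groups overlapped. Its log2 fold change was 0.02 with etoposide (95% interval -0.18 to 0.22) and 0.19 with tozasertib (95% interval -0.03 to 0.40), and neither passed (edgeR, adjusted p = 0.888 and 0.117). With scaling by library size alone, the tozasertib value passed as higher, at 0.28 (edgeR, adjusted p = 0.04).

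The scaffold SUZ12 (ENSG00000178691.11, chr17:31937007-32001038, plus strand) was 58.5, 68.2, 71.5 and 78.0 CPM in DMSO. It was 45.6, 48.3, 53.4 and 47.6 CPM with etoposide and 47.9, 47.1 and 49.2 CPM with tozasertib. Drug-treated samples lay below all DMSO samples and overlapped each other. SUZ12 fell by 0.50 on the log2 scale with etoposide (SE 0.08, adjusted p = 0.000142, edgeR) and by 0.52 with tozasertib (SE 0.09, adjusted p = 0.000225). The neighbouring pseudogene SUZ12P1 took 55 to 127 reads per sample, at most 5.98% of the SUZ12 reads, and reads of such copies can be split between them. Summing SUZ12 with its pseudogene left both calls in place.

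EED, which binds the finished mark (ENSG00000074266.23, chr11:86201212-86278813, plus strand), was 21.6, 18.3, 19.9 and 18.7 CPM in DMSO. It was 14.1, 13.8, 13.1 and 13.6 CPM with etoposide and 14.4, 13.9 and 15.0 CPM with tozasertib. The DMSO samples were again apart from both drugs. EED fell by 0.52 on the log2 scale with etoposide (SE 0.07, adjusted p = 2.86e-05, edgeR) and by 0.44 with tozasertib (SE 0.08, adjusted p = 0.000258). SUZ12 and EED moved less than EZH2, whose 95% intervals of -2.27 to -1.85 and -2.65 to -2.16 did not meet theirs.

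Levels per transcript length (TPM) show what remained of the 2 catalytic subunits. In DMSO, EZH2 stood at 21.3 ± 2.55 TPM and EZH1 at 12.5 ± 1.61 TPM (SD, n = 4), and EZH2 was the higher in each of the 4 samples. With etoposide the levels were 5.86 ± 0.685 TPM for EZH2 and 13.4 ± 3.10 TPM for EZH1 (SD, n = 4). With tozasertib they were 4.81 ± 0.855 and 16.6 ± 2.72 TPM (SD, n = 3). EZH1 was the higher in all 7 drug-treated samples. The ratio of EZH1 to EZH2 in TPM was 0.601, 0.596, 0.547 and 0.609 in DMSO, 2.78, 1.93, 2.37 and 2.07 with etoposide, and 3.54, 3.02 and 3.87 with tozasertib. The 3 groups did not overlap. The ratio rose 3.81-fold with etoposide and was 5.78 times as high with tozasertib as in DMSO, on a scale with 0.1 TPM added. The exact two-sided permutation test gave p = 0.0286 with etoposide and 0.0571 with tozasertib, which are the smallest values that these group sizes allow. After adjustment over the 12 ratio tests both were 0.0762 and did not pass. With these group sizes no ratio could have passed, so this outcome was fixed in advance.

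**Figure D2:**
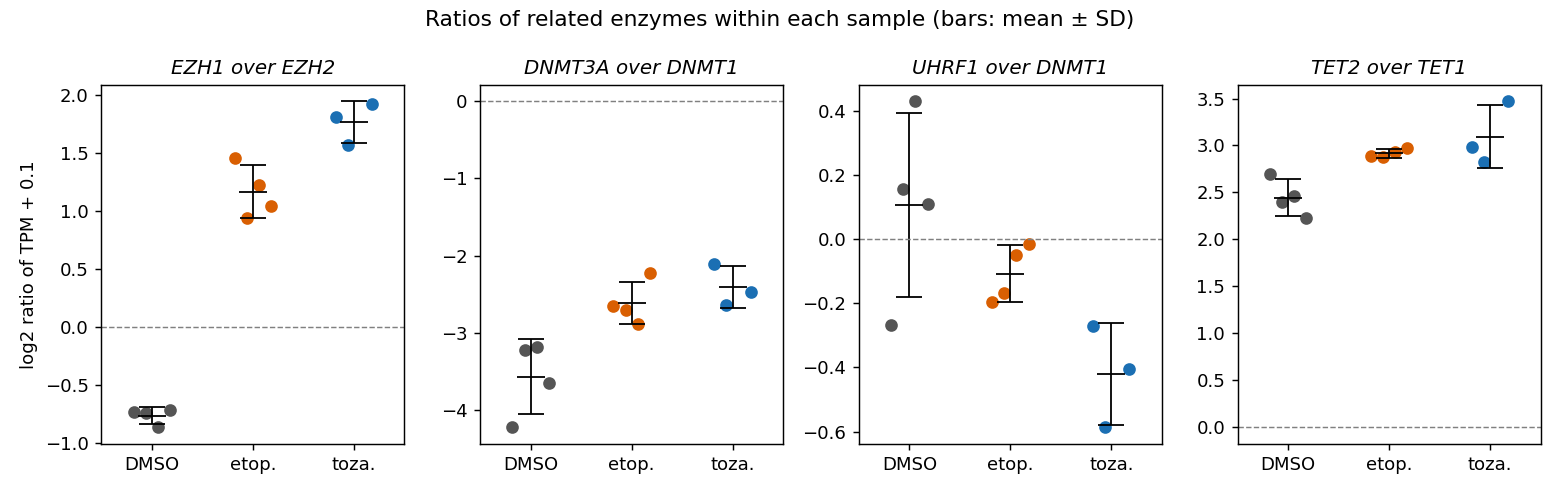
Ratios within each sample, as log2 of TPM + 0.1 of the first gene over the second, for EZH1 over EZH2, DNMT3A over DNMT1, UHRF1 over DNMT1 and TET2 over TET1. Points are samples in DMSO (grey), etoposide (orange) and tozasertib (blue), bars are the mean ± SD, and the dashed line marks equal levels. EZH1 over EZH2 lies between -0.86 and -0.71 in DMSO and between 0.94 and 1.92 with the drugs.

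UHRF1, the partner that recognizes hemimethylated DNA (ENSG00000276043.5, chr19:4903080-4962154, plus strand), had the smallest relative spread of the 10 in DMSO (coefficient of variation 1.87%). Its level was 213, 216, 222 and 216 CPM in DMSO. It was 77.2, 83.5, 82.0 and 77.9 CPM with etoposide, and 60.1, 56.2 and 57.9 CPM with tozasertib. The 3 groups did not overlap. UHRF1 was 2.70-fold lower with etoposide (log2 fold change -1.43, SE 0.05, adjusted p = 8.08e-11) and 3.72-fold lower with tozasertib (log2 fold change -1.90, SE 0.05, adjusted p = 2.66e-11), by edgeR. It was the only one of the 10 called lower between the drugs in the main test, 1.38-fold lower in tozasertib than in etoposide (log2 fold change -0.46, SE 0.05, adjusted p = 8.39e-05, edgeR). All 3 calls held in each of 23 alternatives.

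DNMT1, the maintenance methyltransferase (ENSG00000130816.17, chr19:10133342-10231286, minus strand), was 165, 192, 201 and 208 CPM in DMSO. It was 96.8, 98.6, 102 and 94.5 CPM with etoposide and 89.5, 91.0 and 80.0 CPM with tozasertib. No drug-treated sample reached the DMSO range, and the tozasertib samples all lay below the etoposide samples. DNMT1 was 1.95-fold lower with etoposide (log2 fold change -0.97, SE 0.07, adjusted p = 1.13e-07) and 2.20-fold lower with tozasertib (log2 fold change -1.14, SE 0.08, adjusted p = 6.40e-08), by edgeR. The difference between the drugs, -0.17 with a 95% interval of -0.34 to -0.00, did not pass after adjustment (edgeR, adjusted p = 0.199). It passed with DMSO replicate 1 left out (adjusted p = 0.0366), with DMSO replicates 1 and 4 left out (adjusted p = 0.0391) and with the length trend removed (adjusted p = 0.00642).

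DNMT3A, a de novo methyltransferase (ENSG00000119772.19, chr2:25227855-25342590, minus strand), was 20.7 to 26.0 CPM in DMSO, 19 to 23.8 CPM with etoposide and 19.8 to 21.9 CPM with tozasertib. The groups overlapped. Its log2 fold change was -0.10 with etoposide (95% interval -0.29 to 0.09, adjusted p = 0.348, edgeR) and -0.13 with tozasertib (95% interval -0.33 to 0.08, adjusted p = 0.265). With each sample's trend of level on gene length removed it was called lower with both drugs, at -0.27 (edgeR, adjusted p = 0.0176) and -0.39 (adjusted p = 0.00272). That correction moved the median of all genes by -0.11 for tozasertib against DMSO, so that the second value was -0.29 relative to that shift.

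DNMT3B, the other de novo enzyme (ENSG00000088305.19, chr20:32762385-32809359, plus strand), was low, with 111 to 264 reads per sample. It was 3.84, 4.23, 4.32 and 4.33 CPM in DMSO, 6.27, 5.41, 4.87 and 5.06 CPM with etoposide, and 4.50, 4.05 and 3.85 CPM with tozasertib. All etoposide samples were above all samples of the other groups. It was 1.29-fold higher with etoposide than in DMSO (log2 fold change 0.37, SE 0.12, adjusted p = 0.0138, edgeR). The value with tozasertib was -0.01 (95% interval -0.28 to 0.26, adjusted p = 0.948). The call with etoposide was lost without the filter on low counts (adjusted p = 0.0702), with counts scaled by transcript length (adjusted p = 0.324) and with DMSO replicates 1 and 4 left out (adjusted p = 0.0656).

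In DMSO, DNMT3A stood at 0.0522 to 0.109 of the DNMT1 level in TPM. The share was 0.133 to 0.210 with etoposide and 0.158 to 0.229 with tozasertib, above DMSO in every sample. With 0.1 TPM added to each level for the test, the mean log2 ratio differed from DMSO by 0.95 with etoposide and 1.16 with tozasertib (exact permutation p = 0.0286 and 0.0571, adjusted p = 0.0762 for both). The ratio of UHRF1 to DNMT1 in TPM was 0.831 to 1.35 in DMSO, 0.873 to 0.988 under etoposide and 0.665 to 0.828 under tozasertib. Its log2 difference of -0.21 between etoposide and DMSO lay within the DMSO spread (exact permutation p = 0.2). This difference ran from -0.47 to -0.11 over 14 alternatives and was deepest with CPM in place of TPM. In DMSO replicate 1, DNMT1 was the lowest of the DMSO samples in CPM (165) but the highest in TPM (69.3). In TPM the tozasertib samples were below all samples of the other groups.

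**Figure D3:**
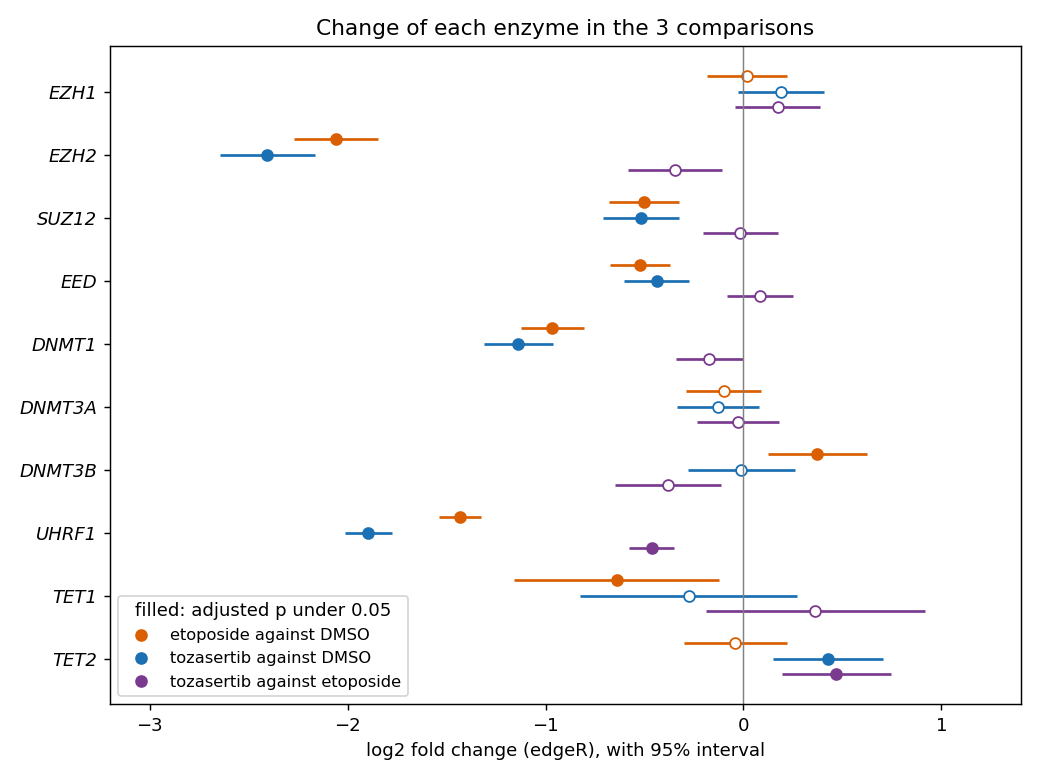
Log2 fold change of each gene fitted by edgeR (horizontal axis) with its 95% interval, for etoposide against DMSO (orange), tozasertib against DMSO (blue) and tozasertib against etoposide (purple). Filled points have an adjusted p under 0.05. EZH2, at -2.06 and -2.41, lies furthest to the left, and both comparisons with DMSO share the same 4 DMSO samples.

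Of the TET enzymes, TET1 (ENSG00000138336.9, chr10:68560337-68694487, plus strand) had only 64 to 216 reads per sample. It was 2.21, 4.16, 4.32 and 5.31 CPM in DMSO. It was 2.70, 2.69, 2.37 and 2.51 CPM with etoposide and 3.68, 3.95 and 2.27 CPM with tozasertib. DMSO replicate 1 was lower than every sample of both drugs, so the groups overlapped. TET1 was called lower with etoposide (log2 fold change -0.64, SE 0.24, adjusted p = 0.0353, edgeR), and this call was lost in 11 of 23 alternatives. Without DMSO replicate 4 it was -0.48 (adjusted p = 0.111). The fold change with tozasertib was -0.28 (95% interval -0.83 to 0.27, adjusted p = 0.365), and without DMSO replicate 1 it was -0.48 and passed (edgeR, adjusted p = 0.0444).

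TET2 (ENSG00000168769.14, chr4:105145875-105279816, plus strand) was 16.5, 22.6, 26.3 and 26.8 CPM in DMSO. It was 23.1, 22.9, 21 and 22.7 CPM with etoposide and 31.7, 30.8 and 30.4 CPM with tozasertib. The tozasertib samples were above all others, while etoposide and DMSO overlapped. TET2 was 1.35-fold higher with tozasertib than in DMSO (log2 fold change 0.43, SE 0.13, adjusted p = 0.0111) and 1.38-fold higher than with etoposide (log2 fold change 0.47, SE 0.13, adjusted p = 0.0318), by edgeR. The call between the drugs was lost in 7 of 23 alternatives, with adjusted p up to 0.121 (without tozasertib replicate 1). With etoposide it was -0.04 (95% interval -0.30 to 0.22, adjusted p = 0.795). Without DMSO replicate 1 the etoposide value was -0.17 and passed as lower (edgeR, adjusted p = 0.0376). The ratio of TET2 to TET1 in TPM was 5.06 to 8.27 in DMSO, 8.62 to 9.27 under etoposide and 7.90 to 13.4 under tozasertib. The etoposide samples lay above all DMSO samples, whereas tozasertib overlapped both other groups. With 0.1 TPM added to each level, as in the planned test, both drugs lay above DMSO in every sample (exact permutation p = 0.0286 and 0.0571, adjusted p = 0.0762 for both). With nothing added, an alternative chosen after seeing the data, p was 0.0286 with etoposide and 0.114 with tozasertib (exact permutation, adjusted p = 0.0857 and 0.152).

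The length trend of the DMSO samples fell on both TET genes. Their mean effective lengths, 8259 bases for TET1 and 8032 bases for TET2, were at the 98.6 and 98.5 percentile of all genes tested. DMSO replicate 1 lay below the DMSO mean by 0.77 for TET1 and 0.46 for TET2 on the log2 scale, whereas replicate 4 lay above it by 0.47 and 0.24. SUZ12 and DNMT1 showed the same order to a lesser degree, at -0.23 and -0.21 in replicate 1 and 0.18 and 0.12 in replicate 4. EZH2 and UHRF1 deviated by less than 0.1 in each DMSO sample. With the length trend removed, TET2 was 0.13 with tozasertib and did not pass (edgeR, adjusted p = 0.127), -0.23 with etoposide and called lower (adjusted p = 0.00927), and TET1 was -0.56 with tozasertib and called lower (adjusted p = 0.024). The tozasertib value of TET2 was 0.24 relative to the shift of the median gene. Under that correction lower genes made up 60.7% of the calls for tozasertib against DMSO, compared with 49.6% in the main test. Between the drugs they made up 69.5%, compared with 49.0%, and 60.0% by DESeq2.

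**Figure D4:**
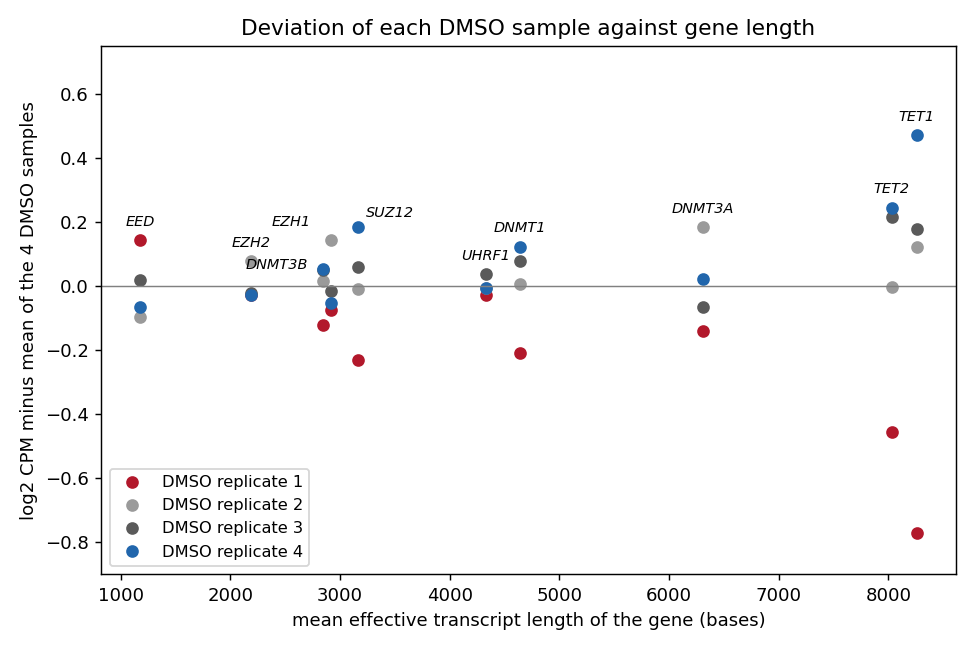
Deviation of each DMSO sample from the mean of the 4 DMSO samples in log2 CPM (vertical axis), against the mean effective transcript length of the gene in bases (horizontal axis), for the 10 genes. TET1 and TET2, the longest of them, are lowest in DMSO replicate 1 (red, -0.77 and -0.46) and highest in DMSO replicate 4 (blue, 0.47 and 0.24).

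On the scale of TPM, the order in DMSO began with UHRF1 (67.7 ± 6.87) and DNMT1 (62.9 ± 7.55), whose samples overlapped. SUZ12 (29.7 ± 7.25), EED (22.7 ± 1.68) and EZH2 (21.3 ± 2.55) came next and overlapped too (SD, n = 4). Below them stood EZH1, then DNMT3A (5.31 ± 1.26) and TET2 (3.99 ± 1.03), which overlapped, and last DNMT3B (2.09 ± 0.202) and TET1 (0.674 ± 0.275), which did not. With tozasertib, DNMT1 led at 29.1 ± 1.95 TPM, followed by SUZ12 at 24.7 ± 0.767 and UHRF1 at 21.7 ± 0.997 (SD, n = 3), with no overlap between neighbours. EZH2, at 4.81 ± 0.855 TPM, had moved below EZH1, and its samples overlapped those of DNMT3A. TET1 was the lowest in each group.

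How each gene's TPM was divided among its transcript models bears on these levels. TET1 had 1 model, and all UHRF1 models that took reads were protein coding. SUZ12-201 held 84.3% to 98.4% of the SUZ12 level in a sample. For EZH1, protein-coding models held 51.8% to 67.5% of the level, and the retained-intron model EZH1-210 held 12.3% to 29.9%. For DNMT1 the protein-coding share ran from 19.2% to 64.9% over samples and overlapped between groups. A short model without a defined coding sequence, DNMT1-224, took 22.1% in DMSO replicate 1 and was listed at 0 in the other samples. For EZH2 the protein-coding share ranged between 67.0% and 72.3% under DMSO, between 58.4% and 77.3% under etoposide, and between 58.5% and 60.6% under tozasertib, so that the tozasertib samples lay below all DMSO samples and within the range of etoposide. For DNMT3B it ran from 21.4% to 70.1% over samples and overlapped between groups. These shares were not tested, since single reads of 72 bases leave the split between models uncertain.

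The other subunits of PRC2 were followed as 11 genes, of which 10 passed the filter. With etoposide 8 were lower and 1 higher, and with tozasertib 7 were lower and 1 higher. Over all genes tested 30.7% were lower and 27.7% higher with etoposide, and 29.4% and 29.9% with tozasertib. Between the drugs edgeR called 0 of them, with 1 lower and 2 higher at an unadjusted p under 0.05, and DESeq2 called 1 lower and 0 higher. PHF19, which helps PRC2 to bind chromatin, was the most changed, at 189 CPM in DMSO, 62.7 with etoposide and 55.4 with tozasertib on average (log2 fold changes -1.59 and -1.77). The histone chaperone RBBP7 fell by 0.93 and 1.02 on the log2 scale, and its relative RBBP4 by 0.17 with etoposide, with a value of -0.08 that did not pass for tozasertib. MTF2 fell by 0.35 and 0.19, and JARID2, a subunit of another form of the complex, rose by 0.22 and 0.24. The median over the list was -0.46 and -0.28, beside -0.01 and 0.02 over all genes.

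PRC1 reads the PRC2 mark and adds ubiquitin to histone H2A. Of its 24 genes, 17 were lower and 2 higher with etoposide, and 16 lower and 3 higher with tozasertib, with list medians of -0.39 and -0.36. The shares over all genes were 30.7% lower and 27.7% higher with etoposide, and 29.4% and 29.9% with tozasertib. CBX2 fell by 1.27 and 1.53, PHC2 by 1.05 and 0.97, the catalytic subunit RNF2 by 0.57 and 0.40, and BMI1 by 0.35 and 0.18, on the log2 scale. CBX7, an alternative reader subunit, rose by 0.89 and 0.99. L3MBTL2 with both drugs and PCGF3 with tozasertib were the other genes that rose, and were named after their values were seen. Between the drugs, CBX2 was lower and PCGF5 and PHC1 were higher in tozasertib, against 5.45% lower and 5.67% higher of all genes.

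Of 6 genes that oppose Polycomb marks, ASXL1 and BAP1, of a complex that removes ubiquitin from histone H2A, fell by 0.18 and 0.26 with etoposide and by 0.20 and 0.27 with tozasertib. Of all genes tested, 30.7% were lower with etoposide and 29.4% with tozasertib, so a count from so short a list says little. ASXL3, at 0.6 to 1.11 CPM on average, rose with tozasertib. The demethylases KDM6A and KDM6B, which erase the PRC2 mark, did not pass, with log2 fold changes of -0.00 and -0.03 for etoposide and 0.37 and 0.21 for tozasertib.

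Of 9 partners of DNA methylation and demethylation, 8 passed the filter, of which 6 were lower and 1 higher with etoposide and 5 lower and 1 higher with tozasertib. All genes tested gave 30.7% lower and 27.7% higher with etoposide, and 29.4% and 29.9% with tozasertib. CDCA7 and HELLS, which form a remodelling complex needed for maintenance of methylation, were 3.61-fold and 2.65-fold lower with etoposide and 5.49-fold and 3.15-fold lower with tozasertib. CDCA7 also differed between the drugs (log2 fold change -0.60, adjusted p = 0.000949, edgeR). UHRF2, a relative of UHRF1, fell by 0.72 and 0.61. TET3, the third TET enzyme, did not pass, at 0.08 and 0.23. The glycosylase TDG, named after its value was seen, rose by 0.35 and 0.26. The list medians were -0.55 and -0.49.

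Among 7 readers of methylated DNA, 3 were lower with each drug, among them MBD2 and MBD3, and 3 were higher with etoposide (MBD1, ZBTB33 and ZBTB4) and 2 with tozasertib (ZBTB33 and ZBTB4). Of all genes tested, 30.7% were lower and 27.7% higher with etoposide, and 29.4% and 29.9% with tozasertib. Counts from these readers and the methyl donor genes below say little beside those shares, as both lists are short. ZBTB4 rose by 0.67 and 0.65, MBD2 fell by 0.64 and 0.69, and MBD3 fell by 0.57 and 0.67, on the log2 scale. Of 6 genes that supply methyl donors, MAT2B and MTAP fell with both drugs, by 0.55 and 0.42 with etoposide and by 0.36 and 0.38 with tozasertib. AHCY fell by 0.25 with tozasertib, while its value of 0.17 with etoposide did not pass, and it was lower with tozasertib than with etoposide (log2 fold change -0.42, adjusted p = 0.0112, edgeR).

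As a comparison, 18 genes of DNA replication were all lower with each drug, with medians of -1.57 and -2.11, and 11 of them were lower with tozasertib than with etoposide. The shares of all genes called lower were 30.7% with etoposide, 29.4% with tozasertib and 5.45% between the drugs. MCM4, a subunit of the replicative helicase, fell by 1.51 and 2.09, and CDC6, which loads it, by 1.59 and 2.49. The log2 fold changes of UHRF1 (-1.43 and -1.90), EZH2 (-2.06 and -2.41) and DNMT1 (-0.97 and -1.14) lay within the range of these 18 genes. Those of SUZ12 and EED lay outside it. The part of the share of dividing cells in the levels of the 10 genes was not tested.

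**Figure D5:**
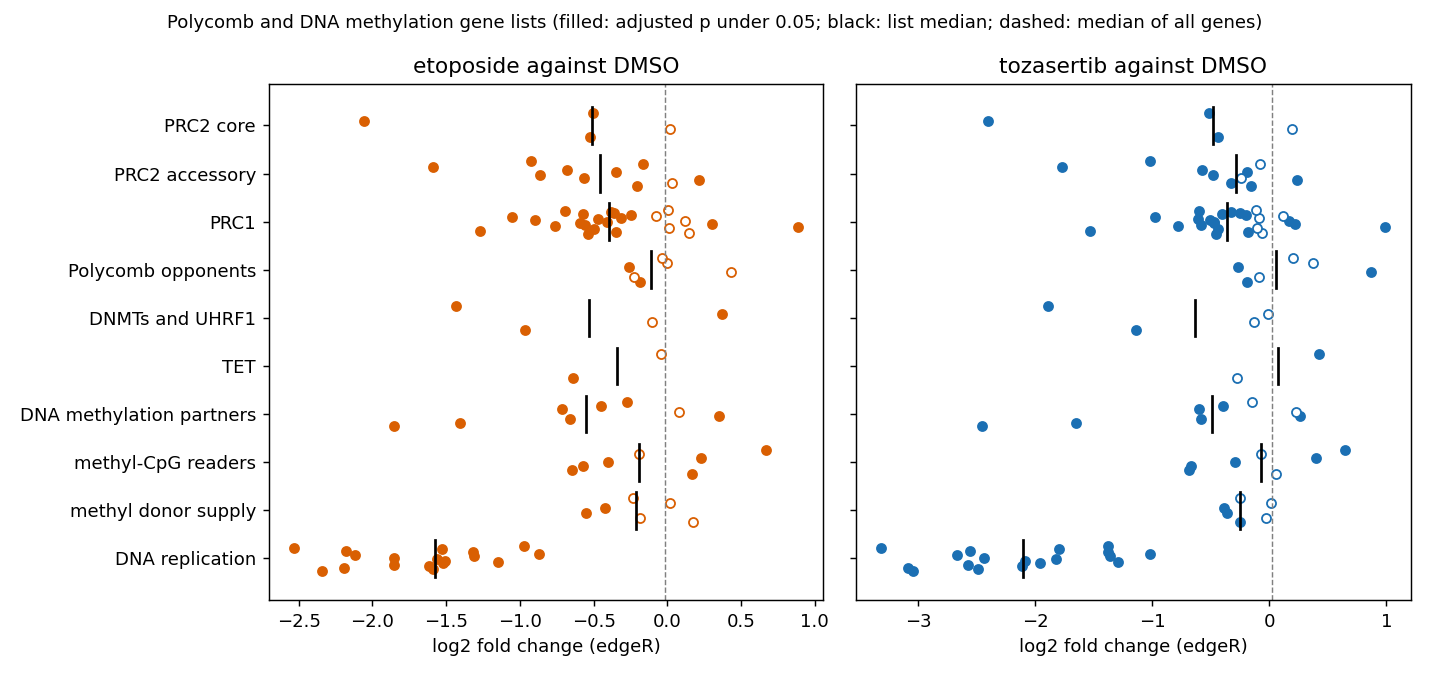
Log2 fold change of each tested gene (points, horizontal axis) in the lists of Polycomb and DNA methylation genes, for etoposide against DMSO (left) and tozasertib against DMSO (right). Filled points have an adjusted p under 0.05, black lines are list medians and the dashed line is the median of all genes. DNA replication genes, with medians of -1.57 and -2.11, lie furthest to the left.

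Genes that are textbook targets of Polycomb silencing were described beside the enzymes. Of 28, 20 passed the filter, and 9 were lower and 2 higher with etoposide (median -0.05), and 7 lower and 5 higher with tozasertib (median 0.06). Over all genes tested, 30.7% were lower and 27.7% higher with etoposide, and 29.4% lower and 29.9% higher with tozasertib. HOXC6 fell by 1.13 and 1.19, FOXC1 by 1.01 and 0.69, and CDKN2A, which encodes inhibitors of the cell cycle, by 0.38 and 0.48. CDKN2A was already high in DMSO, at 435 CPM on average. GATA6 and HOXB13 rose with both drugs and HOXC13, HOXD10 and HOXD13 with tozasertib, and all but HOXC13 were named after their values were seen. Of 16 germline genes that DNA methylation silences in most tissues, 5 passed the filter, and the 11 others averaged at most 0.372 CPM in any group. MAGEA1, MAGEA3, MAGEA4 and MAGEA10 were already expressed in DMSO, at 110, 112, 75.7 and 100 CPM on average. MAGEA1, MAGEA4 and MAGEA10 fell with both drugs, by 0.51, 0.55 and 0.21 with etoposide and by 0.66, 0.29 and 0.28 with tozasertib, and SYCP3, at 0.112 to 0.412 CPM on average, rose with tozasertib. Genes of the MAGEA family resemble each other closely, and their reads can be split between copies. Histone and DNA methylation were not measured in these samples.

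The genes whose log2 CPM followed each of the 10 most closely over the 11 samples were listed from 13478 protein-coding genes, as a description. For EZH2, SUZ12, EED, DNMT1 and UHRF1 it rests largely on the difference between DMSO and drug samples. What it rests on for the other genes was not tested. TET1 and TET2 varied widely within DMSO (coefficients of variation 32.4% and 20.7%). For UHRF1 they were RRM1, MCM4 and TCF19 (Pearson r of 0.998, 0.998 and 0.997), and for EZH2 they were SAPCD2, TMPO and FANCI (0.998, 0.998 and 0.997). For DNMT1 they were MAP3K20, GMPS and RAD18 (0.997, 0.996 and 0.996). SUZ12 was followed among others by TOM1L1 and AMOTL1 (0.989 and 0.985), and EED by ENY2 and HOXA3 (0.990 and 0.987). The closest gene was CCNL1 for EZH1 (0.969), PMS1 for DNMT3B (0.938) and SLC26A2 for DNMT3A (0.920). It was ATF7IP for TET1 (0.945) and ARHGAP21 for TET2 (0.982).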

How the data were processed

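RNA of 11 samples (single-end reads of 72 bases, poly(A) enrichment, strand-specific libraries) was processed by the submitters, whose notes list the build GRCh38, Salmon 1.9.0, cutadapt 4.7, DESeq2 1.40.2 and R 4.4.2. The study's methods name STAR, whereas the deposited tables have the columns of Salmon, with options and transcript release not given in the sources used here. Per the file headers, each deposited table holds estimated counts of reads that are not normalized, TPM (relative to transcript length and to the sample's sum) and effective length. Transcripts were joined to GENCODE release 44 by identifier, with 437 of 251645 unmatched and left out, and the estimated counts were summed per gene and rounded. Genes kept by filterByExpr (17039) were tested two-sided in R 4.3.3 by edgeR 4.0.16 (quasi-likelihood), with TMM scaling, 1 mean per group over all 11 samples, and Benjamini-Hochberg adjustment over all genes tested. CPM values are TMM-scaled. No 2 replicates agreed within sampling noise (chi-square per degree of freedom of 4.00 or more). Ratios were compared by exact permutation of log2 (TPM + 0.1). The pipeline was tested on simulated data, in which no length trend was set. A first check on recovery failed because genes with few counts were missed. The check was then limited to well-counted genes, so it does not vouch for genes with few counts. Alternatives were other scalings, limma 3.58.1 (voom), DESeq2 1.42.0, other filters, counts scaled by length, removal of a length trend, a replicate block and samples left out. The 10 genes and the lists were chosen with earlier results of these data known. Named were all 10 genes, up to 4 genes per list with the smallest adjusted p in each comparison, 17 regulators whatever their values, and the 3 genes closest to each of the 10. Some genes that this rule takes in are not reported here. No protein sequences were used here.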

Additional observations from a re-analysis of the deposited data

Results flagged for a closer look

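In the groups of 4 samples, the highest or lowest value of each gene and ratio was compared with its neighbours (Dixon's test at 95%). Of 28 such groups 1 had a sample far from the others, and chance flags about 1 in 20. EZH2 in DMSO replicate 2 stood at 36.6 CPM, with the other DMSO samples between 34.0 and 34.2 CPM. The gap was 0.941 of the range of the group. The cause was not tested, and leaving out this sample changed neither EZH2 call against DMSO.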

How the results depend on the processing

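Across 23 alternatives, 18 of the 30 gene results kept their direction and side of the threshold or stayed without a call in every one, and none of the called results changed sign. The calls of EZH2, SUZ12, EED, DNMT1 and UHRF1 against DMSO held throughout. The count of genes raised by etoposide was 0 in place of 1 without the filter on low counts, with length-scaled counts and without DMSO replicates 1 and 4. The count raised by tozasertib against DMSO was 2 with library size alone and 0 with the length trend removed. Between the drugs, the count lower in tozasertib was 3 with DESeq2's size factors and with DESeq2, 2 without the filter and without DMSO replicates 1 and 4, and 4 with the length trend removed. It ran from 1 to 4 with single samples left out, the highest without DMSO replicate 1, and was 2 without tozasertib replicate 1. The count higher ran from 0 to 1, and was 0 without any 1 of the 3 tozasertib samples or of etoposide replicates 2 to 4. Over all genes, the 929 lower and 966 higher calls between the drugs became 1854 and 1545 without DMSO replicate 1, and 589 and 675 without etoposide replicate 3. They became 471 and 565 without tozasertib replicate 1, 484 and 591 without tozasertib replicate 2, and 2077 and 913 with the length trend removed. The cause of these changes was not tested. With a replicate block the counts between the drugs were 2 lower and 0 higher, and TET1 with etoposide (adjusted p = 0.0707, edgeR) and TET2 between the drugs (adjusted p = 0.0592) lost their calls while EZH2 between the drugs gained one (adjusted p = 0.0416). Whether the replicate numbers pair the samples remained unsettled. Deviations of same-numbered samples correlated at -0.0931 to 0.232 (median 0.0349), and those of differently numbered samples at -0.211 to 0.160 (median -0.0235). Between the 2 drugs the same-numbered pairs stood at 0.232, 0.0953 and 0.126, and the differently numbered pairs at -0.211 to 0.160. TET2 against DMSO kept its call with tozasertib in 22 of 23 alternatives. None of the 12 ratios passed in any of the 14 alternatives, of which that with no pseudocount was chosen after seeing the data. An exact test of 3 against 4 samples cannot go below 0.0571 before adjustment. After adjustment over 12 tests no ratio could pass in the main test or in any alternative, so this carries no information on stability. Depth limits TET1 and DNMT3B, with 64 to 264 reads in a sample.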
